A study of Mus musculus with 81 samples.

Results

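Non-productive T-cell receptor β (TCRβ) rearrangements were taken as every row with the status Out or Stop in 81 libraries of mouse blood and tumor DNA. A row is 1 nucleotide rearrangement in 1 library. These were 202220 of 581514 rows (34.8%), of which 196093 were Out (V and J joined out of frame) and 6127 were Stop (in frame, with a stop codon in the junction). They held 287931 of 1365685 templates (21.1%), a template being 1 counted copy of a rearranged gene, and 197099 of their nucleotide sequences were distinct.

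A TCRβ gene is built by joining V, D and J segments, with bases trimmed and added at each joint, so many joints lose the reading frame. A T cell whose joint fails on one chromosome can rearrange the other, and the failed copy then stays in the DNA as a passenger that makes no receptor. Because such copies are not selected for what they recognize, they show the repertoire as recombination made it, and they expand only together with the cell that carries them.

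All mice were Pep Boy mice (B6.SJL-Ptprc a Pepc b/BoyJ, a CD45.1 strain of B6). Tumors were EG7.OVA, a line of the EL4 mouse T-cell lymphoma that makes ovalbumin. As a T-cell line it carries TCRβ rearrangements of its own. OT-1 cells are transgenic T cells specific for an ovalbumin peptide, and every mouse had received them. In the treatment experiment, 15 tumor-bearing mice were given 1000000 naïve OT-1 cells and then, on days 0 and 3, 1000000000 mRBC-CTRL (control red cells, CTRL arm), or 250000000 (2.5E8 arm) or 1000000000 (1E9 arm) mRBC-OVA-4-1BBL-IL-12, which are engineered red cells that present ovalbumin peptide. Day 0 blood was drawn after OT-1 transfer and before dosing (5 CTRL, 5 2.5E8 and 4 1E9 mice), and day 7 blood (4, 5 and 5 mice) together with the tumors (5 per arm, DNA from part of each cell suspension). In the rechallenge experiment, 7 mice cured by 250000000 mRBC-OVA-4-1BBL-IL-12 after 1000000 OT-1 cells were bled on days 65 and 73, around an EG7.OVA challenge on day 66, and again on the day before an EL4 challenge on day 127 (pre-EL4) and on day 136 (post-EL4). In the same experiment, 5 age-matched Naive mice were given 500000 OT-1 cells on day 65 and the day 66 challenge. They were bled on day 65, after OT-1 transfer, and on day 73.

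Libraries held between 2623 and 81909 templates, with a median of 10980 in blood and 35468 in tumors, and CTRL tumors were the deepest (49378 to 81909). Productive templates of the mice's own cells were counted as in-frame rearrangements other than the OT-1 CDR3 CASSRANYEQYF and the tumor-line CDR3 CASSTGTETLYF, and are called host productive templates. The CDR3 is the stretch from V to J that varies most between receptors. Bulk DNA does not tell fewer cells of a type from cells carrying fewer copies.

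The rearrangements on which the results turn are shown 5′ to 3′ as 87-base reads with the CDR3 in capitals. The first pair are the productive rearrangements of the transferred OT-1 cells and of the tumor line. Each is followed by a non-productive sequence close to it that was found in all 15 tumors.
OT-1: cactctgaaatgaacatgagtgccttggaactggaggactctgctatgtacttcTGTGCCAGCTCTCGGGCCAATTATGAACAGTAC
OT-1, Out copy: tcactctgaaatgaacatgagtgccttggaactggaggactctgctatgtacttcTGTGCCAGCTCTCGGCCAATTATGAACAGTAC
Tumor line: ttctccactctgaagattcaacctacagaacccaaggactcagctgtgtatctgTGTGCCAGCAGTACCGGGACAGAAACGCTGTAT
Tumor line, Out copy: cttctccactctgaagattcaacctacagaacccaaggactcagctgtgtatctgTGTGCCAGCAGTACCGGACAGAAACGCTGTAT

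The next 6 are the largest non-productive clones, numbered by their highest share of a library. Clones 1 and 2 share the V segment TCRBV05-01, and the Stop clone 2 holds a TAA in its junction.
Clone 1: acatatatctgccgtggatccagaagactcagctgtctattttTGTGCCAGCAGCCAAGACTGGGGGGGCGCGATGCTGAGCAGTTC
Clone 2: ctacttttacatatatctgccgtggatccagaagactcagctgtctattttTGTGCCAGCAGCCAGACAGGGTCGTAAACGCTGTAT
Clone 3: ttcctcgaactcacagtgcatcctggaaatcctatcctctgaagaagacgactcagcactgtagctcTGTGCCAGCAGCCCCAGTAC
Clone 4: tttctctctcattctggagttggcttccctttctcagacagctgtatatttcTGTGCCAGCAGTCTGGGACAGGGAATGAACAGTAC
Clone 5: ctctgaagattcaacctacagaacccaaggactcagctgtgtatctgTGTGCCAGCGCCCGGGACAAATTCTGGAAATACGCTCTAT
Clone 6: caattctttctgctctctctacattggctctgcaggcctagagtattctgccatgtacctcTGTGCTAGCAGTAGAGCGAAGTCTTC

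The last 5 show V segments that were over-represented among non-productive rearrangements. In the TCRBV04-01 reads the capitals mark codon 5 of the CDR3. It is TAA in the Stop and Out reads shown, which lost no base from the V end. In the in-frame read shown, which lost 4 bases, it is TGG. In the TCRBV24-01 reads the capitals mark the codon that lies 2 codons before the CDR3, which is TAG in an Out and in an in-frame row alike.
TCRBV04-01, Stop: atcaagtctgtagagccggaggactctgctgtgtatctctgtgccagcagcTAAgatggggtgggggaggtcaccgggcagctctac
TCRBV04-01, Out: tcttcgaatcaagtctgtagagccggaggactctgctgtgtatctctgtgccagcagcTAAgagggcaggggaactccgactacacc
TCRBV04-01, in frame: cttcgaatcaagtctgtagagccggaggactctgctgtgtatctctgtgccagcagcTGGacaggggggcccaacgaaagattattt
TCRBV24-01, Out: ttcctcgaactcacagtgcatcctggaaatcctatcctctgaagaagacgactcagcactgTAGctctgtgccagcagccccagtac
TCRBV24-01, in frame: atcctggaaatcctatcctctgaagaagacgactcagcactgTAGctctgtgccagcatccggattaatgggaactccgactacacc

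The first question was how large a share of each library was non-productive. On day 0, blood of CTRL mice 1 to 5 held 26.6%, 26.1%, 27.7%, 28.5% and 27.3% non-productive templates. On the same day 2.5E8 mice 1 to 5 held 27.1%, 25.95%, 25.6%, 23.9% and 25.4%, and 1E9 mice 2 to 5 held 23.5%, 24.7%, 27.5% and 26.8%. The arms overlapped before dosing.

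On day 7, CTRL mice 2 to 5 held 31.5%, 33.9%, 31.1% and 32.8%, and 2.5E8 mice 1 to 5 held 33.8%, 32.1%, 29.5%, 31.7% and 31.3%. The 1E9 mice 1 to 5 held 13.7%, 13.996%, 15.6%, 21.5% and 10.2%. Every 1E9 library was thus below every CTRL and 2.5E8 library. The mean share was 14.99% ± 4.13 (SD, n = 5) in 1E9 blood against 32.3% ± 1.29 (SD, n = 4) in CTRL blood, a difference of -17.3 percentage points (2-sided exact permutation test, p = 0.00794, adjusted p = 0.0238 over the 6 arm comparisons of tumors and day 7 blood). Against 2.5E8 blood (31.7% ± 1.53, SD, n = 5) the difference was -16.7 points (exact permutation p = 0.00794, adjusted p = 0.0238), whereas 2.5E8 and CTRL blood differed by -0.63 points (exact permutation p = 0.532). The value of 0.00794 is the smallest that these group sizes allow.

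Within mice, the share rose between day 0 and day 7 in 4 of 4 CTRL mice, by a mean of 4.91 points (range 2.67 to 6.22). It rose in 5 of 5 2.5E8 mice, by a mean of 6.08 points (range 3.92 to 7.80). It fell in 4 of 4 1E9 mice, with a mean change of -10.3 points (range -16.6 to -5.99). Exact sign-flip tests on 4 or 5 pairs cannot go below p = 0.125 or p = 0.0625, and each of these changes had the smallest p its number of pairs allows.

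OT-1 templates moved the other way in the same blood. OT-1 made up 63.6% ± 11.6 (SD, n = 5) of productive templates in 1E9 blood on day 7, against 3.62% ± 2.64 (SD, n = 4) in CTRL blood and 5.197% ± 2.24 (SD, n = 5) in 2.5E8 blood, and 16.97% to 31.3% on day 0 over the 3 arms. Since OT-1 templates are part of the denominator of the share, non-productive templates were also counted per 100 host productive templates. By that count, day 7 blood held 49.6 ± 2.58 (SD, n = 4) in CTRL, 49.0 ± 2.83 (SD, n = 5) in 2.5E8 and 49.4 ± 4.74 (SD, n = 5) in 1E9 mice. The 1E9 and CTRL groups overlapped and differed by -0.16 (exact permutation p = 0.952), and 1E9 and 2.5E8 by 0.45 (exact permutation p = 0.889). Within mice it went up from day 0 to day 7 in 5 of 5 2.5E8 mice, by a mean of 4.46 (from 44.5 to 49.0, exact sign-flip p = 0.0625, the smallest 5 pairs allow). The mean change was 2.94 in 1E9 mice (up in 3 of 4, exact sign-flip p = 0.375) and 1.18 in CTRL mice (up in 3 of 4). The group means of blood in both experiments lay between 44.5 and 51.0 by this count, as the plot of shares by group shows.

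**Figure D1:**
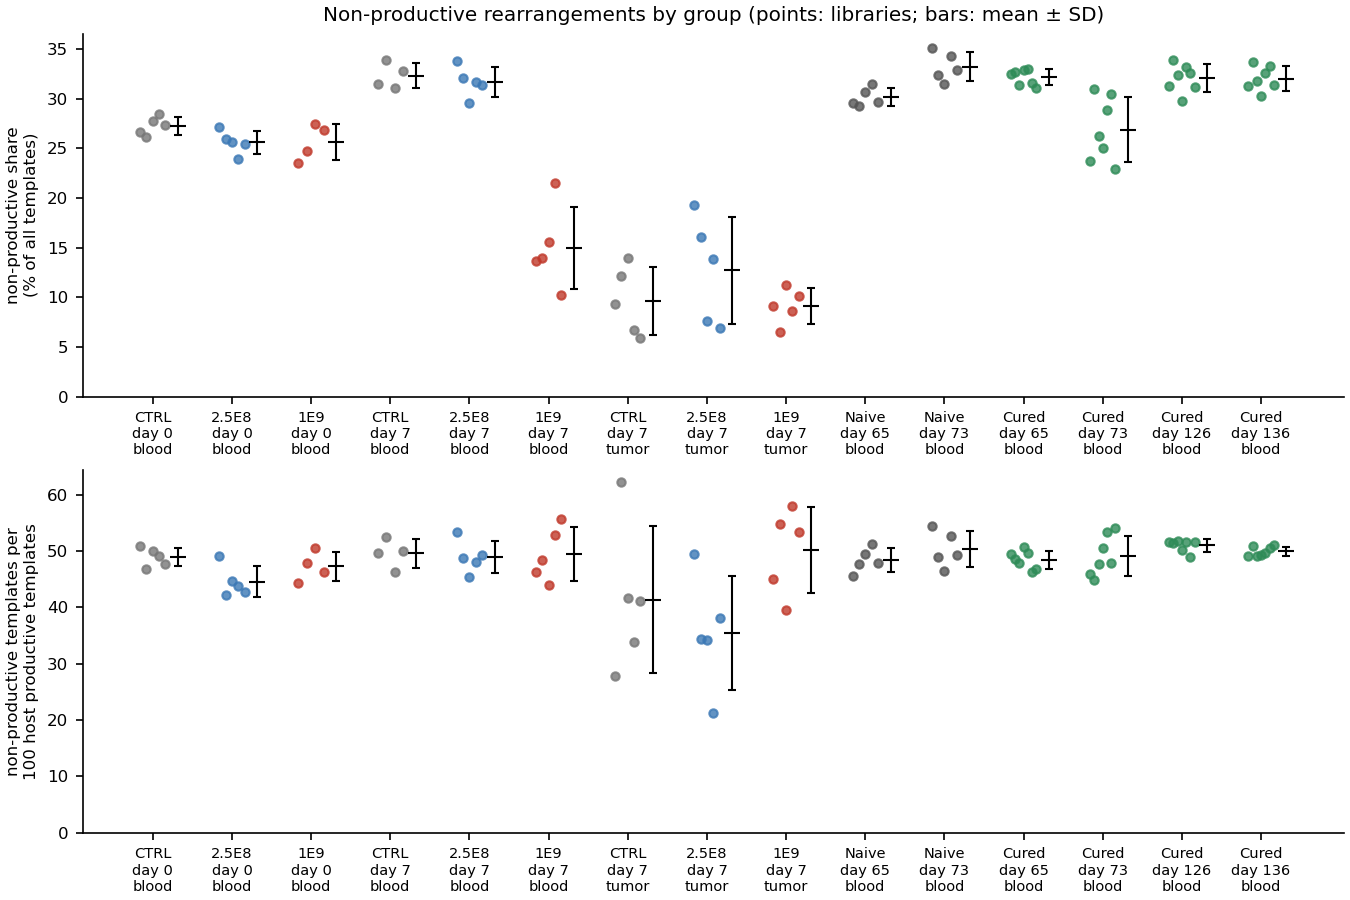
Non-productive share of all templates (upper panel, percent) and non-productive templates per 100 host productive templates (lower panel) in each group. Points are libraries and bars are mean ± SD. Day 7 blood of 1E9 mice lies between 10.2% and 21.5% in the upper panel, below all other blood, and between 43.98 and 55.6 in the lower panel, where it overlaps the other arms and reaches past both ends of their day 7 range (45.4 to 53.3).

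In cured mice the share dipped 7 days after the EG7.OVA challenge. It ranged from 31.0% to 33.0% on day 65 (median 32.5%, n = 7) and from 22.9% to 31.0% on day 73 (median 26.3%), and was lower in 7 of 7 mice, with a mean change of -5.27 points (exact sign-flip test, p = 0.0156, the smallest 7 pairs allow). It was higher again in 7 of 7 mice in pre-EL4 blood (range 29.7% to 33.9%, median 32.4%, mean change 5.17 points, exact sign-flip p = 0.0156). In post-EL4 blood it ranged from 30.2% to 33.7%, a change of -0.017 points from pre-EL4 blood (exact sign-flip p = 0.938, lower in 4 of 7 mice). From day 65 to day 73 the share went from 32.7% to 31.0% in cured mouse 2, which had 0 OT-1 templates on both days, and from 31.6% to 30.5% in cured mouse 6, the next lowest in OT-1 on day 73 (8.38% of productive templates). These were the smallest changes of the 7.

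Naive mice 1 to 5 held 29.6%, 29.3%, 30.7%, 31.4% and 29.7% on day 65, and 35.1%, 32.4%, 31.5%, 34.2% and 32.9% on day 73. The share rose in 5 of 5 of them, by a mean of 3.07 points (exact sign-flip p = 0.0625, the smallest 5 pairs allow). Over the same days OT-1 went from 10.7% ± 1.88 of their productive templates, after transfer, to 1.06% ± 0.634 (SD, n = 5). In cured mice OT-1 made up 2.11% ± 1.86 on day 65 and 24.1% ± 15.4 on day 73 (SD, n = 7). Cured mice were 2.01 points above Naive mice on day 65, with overlapping ranges (exact permutation p = 0.00758), and 6.33 points below them on day 73, with no overlap (difference -6.33, exact permutation p = 0.00505). Per 100 host productive templates the corresponding differences were 0.074 (exact permutation p = 0.944) and -1.17 (exact permutation p = 0.554). By that count the changes within cured mice had exact sign-flip p from 0.125 to 0.703 over the 3 steps, and Naive mice changed by 1.96 (up in 4 of 5, exact sign-flip p = 0.5).

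The relation to OT-1 was then examined over mice within a day, as 10 relations. The OT-1 share and the non-productive share have templates in common, since a library with more OT-1 templates has fewer of all others. On day 73, when OT-1 made up 0% to 45.0% of productive templates in the 7 cured mice, the non-productive share fell with OT-1 share, with Pearson r = -0.943 (exact permutation p = 0.000794, adjusted p = 0.00397) and Spearman rho = -0.964 (exact permutation p = 0.00278, adjusted p = 0.00926). It was r = -0.941 in pre-EL4 blood (exact permutation p = 0.00278, adjusted p = 0.00926) and r = -0.956 in post-EL4 blood (exact permutation p = 0.000794, adjusted p = 0.00397), with rho = -0.964 in both. Without the 2 mice farthest from the median OT-1 share, r was -0.906 for day 73, -0.887 for pre-EL4 and -0.995 for post-EL4 blood. On day 65, when OT-1 was at most 4.57%, r was -0.418 and rho -0.50 (n = 7, exact permutation p = 0.297 and 0.267). In the 14 day 0 libraries of the 3 arms, r was -0.57 (permutation p = 0.0352, adjusted p = 0.0881) and rho -0.411 (permutation p = 0.144).

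Per 100 host productive templates, none of the 5 relations passed. The values of r were 0.232 (day 0), 0.104 (day 65), 0.636 (day 73), 0.202 (pre-EL4) and -0.246 (post-EL4), with adjusted permutation p from 0.229 to 0.82. They moved widely when the 2 farthest mice were left out, to -0.013, -0.468, 0.041, 0.711 and -0.959 in the same order.

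**Figure D2:**
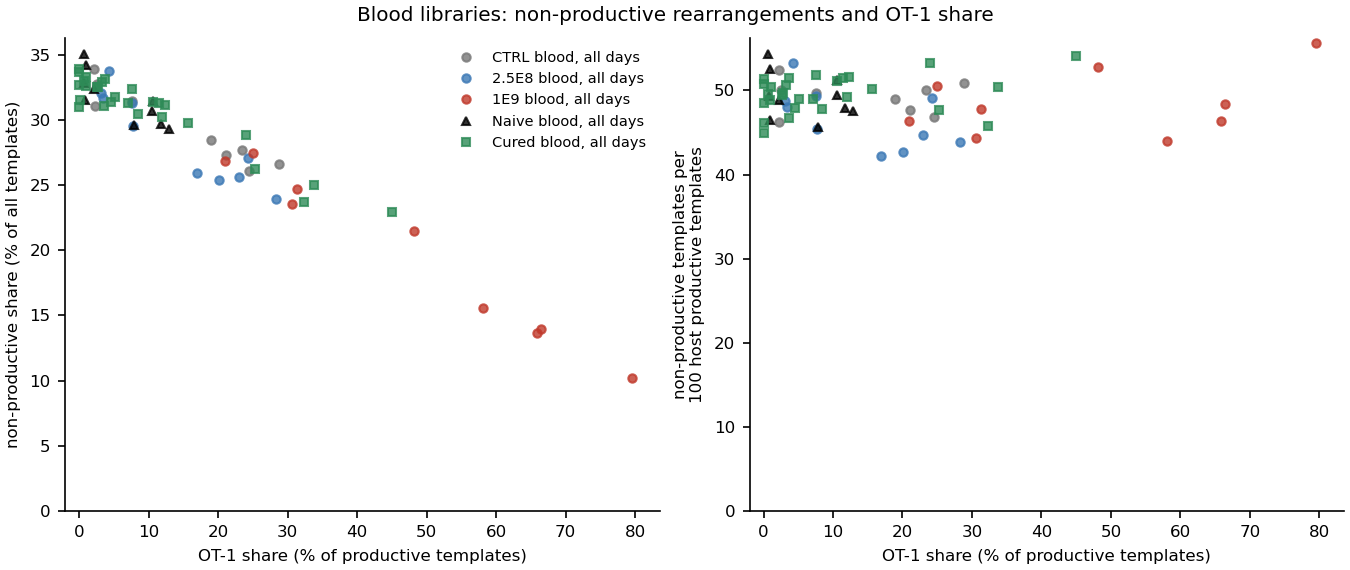
Each point is a blood library, with the OT-1 share of productive templates on the x axis (percent) and, on the y axis, the non-productive share of all templates (left, percent) or non-productive templates per 100 host productive templates (right). The highest value on the left is 35.1%, at 0.615% OT-1, and the lowest 10.2%, at 79.5% OT-1, while all points on the right lie between 42.2 and 55.6.

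Tumors held a smaller share of non-productive templates than blood, counted over all templates, OT-1 and tumor-line copies included. CTRL tumors 1 to 5 held 9.35%, 12.2%, 13.9%, 6.73% and 5.94% non-productive templates. The 2.5E8 tumors 1 to 5 held 19.2%, 16.1%, 7.60%, 13.8% and 6.86%, and the 1E9 tumors 1 to 5 held 9.07%, 6.51%, 11.2%, 8.63% and 10.2%. The arms overlapped, and no comparison passed (exact permutation p = 0.77 for 1E9 against CTRL, 0.278 for 2.5E8 against CTRL and 0.183 for 1E9 against 2.5E8).

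In a comparison added after the values were seen, the tumor was below the day 7 blood of the same mouse in 4 of 4 CTRL, 5 of 5 2.5E8 and 5 of 5 1E9 mice, by means of -22.6, -19.0 and -5.87 points. Other counts did not all run this way: the share of rearrangements was higher in the tumor in 4 of 5 1E9 mice (mean 4.92 points), 4 of 5 2.5E8 mice (1.41) and 1 of 4 CTRL mice (-0.88), and per 100 host productive templates the tumor differed from blood by 0.73 (1E9), -13.5 (2.5E8) and -4.87 (CTRL). The productive side of these tumors was filled by different rearrangements in the arms. The main tumor-line rearrangement made up 42.9% to 74.6% of all templates in CTRL tumors, 6.45% to 45.3% in 2.5E8 tumors and 0.663% to 4.80% in 1E9 tumors, and OT-1 made up 5.21% to 14.5%, 17.1% to 57.7% and 65.9% to 85.8% of productive templates.

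Per 100 host productive templates, tumors held 41.3 ± 13.1 (CTRL), 35.5 ± 10.1 (2.5E8) and 50.2 ± 7.60 (1E9; SD, n = 5 each), a wider spread than in blood. The 1E9 and 2.5E8 tumors differed by 14.7 (exact permutation p = 0.0317, adjusted p = 0.19 over 6). Counted as rearrangements rather than templates, so that each clone weighs the same, the non-productive share was 35.2% ± 1.66 in CTRL, 38.5% ± 2.42 in 2.5E8 and 40.9% ± 1.06 in 1E9 tumors (SD, n = 5 each), and 1E9 tumors (39.8% to 42.3%) did not overlap CTRL tumors (32.9% to 37.5%). That difference was 5.75 points (exact permutation p = 0.00794), against -0.51 points by templates. CTRL tumors were also the deepest libraries, and the part of depth in the difference was not tested.

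Non-productive clones with at least 1% of all templates of a library were looked for next. There were 25 such entries from 21 distinct rearrangements (20 Out, 1 Stop) in 14 of 81 libraries, and none of the 21 was found in another mouse. Tumors held 19 of the entries, in 10 of 15 tumors: 7 in 3 CTRL tumors, 7 in 3 2.5E8 tumors and 5 in 4 1E9 tumors. Day 7 blood held 5 entries in 3 of 14 libraries, and day 73 blood of cured mice held 1. No day 0, pre-EL4, post-EL4 or Naive library held one, nor did blood of cured mice before the first rechallenge. The largest non-productive clone of a day 0 library had 0.0299% to 0.11% of its templates. Just under the threshold lay a clone with 0.958% of day 73 blood of cured mouse 4 and one with 0.956% of 1E9 tumor 3, and just over it one with 1.002% of CTRL tumor 3.

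The 2.5E8 tumors held the largest. Clone 1 (TCRBV05-01, TCRBJ02-01, Out) made up 1550 of 19159 templates of 2.5E8 tumor 2 (8.09%, 95% Wilson interval 7.71 to 8.48), which was 50.4% of all its non-productive templates. The same rearrangement had 1 template in that mouse's blood on day 0 and 232 (3.12%) on day 7. Clone 2 (TCRBV05-01, TCRBJ02-03, Stop) made up 5.30% of 2.5E8 tumor 1 (1881 templates), with 5 templates in day 0 blood and 130 (2.25%) in day 7 blood. Clone 5 (TCRBV15-01, TCRBJ01-03, Out) made up 3.56% of the same tumor and 1.26% of the same day 7 blood, with 0 templates on day 0.

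In CTRL tumors the largest was clone 3 (TCRBV24-01, TCRBJ02-05, Out), with 2362 templates or 4.02% of CTRL tumor 2, and 21 templates (0.226%) in day 7 blood. The same tumor held clone 7 (TCRBV14-01, TCRBJ02-03, Out) at 2.63% and clone 12 (TCRBV13-01, TCRBJ02-04, Out) at 1.87%. CTRL tumor 3 held clone 10 (TCRBV02-01, TCRBJ01-04, Out) at 2.04% and clone 11 (TCRBV04-01, TCRBJ02-07, Out) at 1.96%. These 4 were at 0.108% to 0.498% in day 7 blood of the same mice.

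In 1E9 mice, clone 8 (TCRBV29-01, TCRBJ02-07, Out) made up 2.55% of tumor 5 and clone 9 (TCRBV04-01, TCRBJ02-07, Out) 2.40% of tumor 3. Clone 6 (TCRBV17-01, TCRBJ01-01, Out) ran the other way, with 466 templates or 2.88% of day 7 blood of mouse 4 and 299 or 1.05% of its tumor, from 1 template on day 0. In that blood no host productive rearrangement had more templates than this out-of-frame one.

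Of the 19 tumor entries, 18 were also found in day 7 blood of the same mouse and 18 had a higher share in the tumor than there, a direction that choosing them by their tumor share favours. Of the 5 entries chosen by their share of day 7 blood, 3 (clones 1, 2 and 5) were higher in the tumor and 2 (clones 6 and 19) in blood. The exceptions were clone 18, a TCRBV31-01 rearrangement with 45 templates in 2.5E8 tumor 4 and 0 in blood, and clone 6. Only 7 of the 18 entries with a day 0 library were found on day 0. More widely, 3.33% ± 0.173 (SD, n = 4 mice) of the non-productive rearrangements of CTRL tumors were found in the mouse's own day 7 blood, 5.88% ± 1.57 (n = 5) of those of 2.5E8 tumors and 11.3% ± 5.60 (n = 5) of those of 1E9 tumors. Host productive rearrangements of the same tumors were found there at nearly the same rates, 3.76%, 6.89% and 11.7%. The mean number of non-productive rearrangements shared was 57 (CTRL), 53 (2.5E8) and 60.4 (1E9). The mean number compared per tumor fell from 1725 to 967 and 523 in the same order. The reverse shares of the non-productive ones, of blood found in the tumor, were 2.19%, 4.54% and 7.20%. The 7.20% of 1E9 mice included 17.7% in mouse 5, with 186 blood rearrangements compared. Between 18 and 99 rearrangements were shared in a mouse, against at most 6 with the blood of any other mouse.

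**Figure D3:**
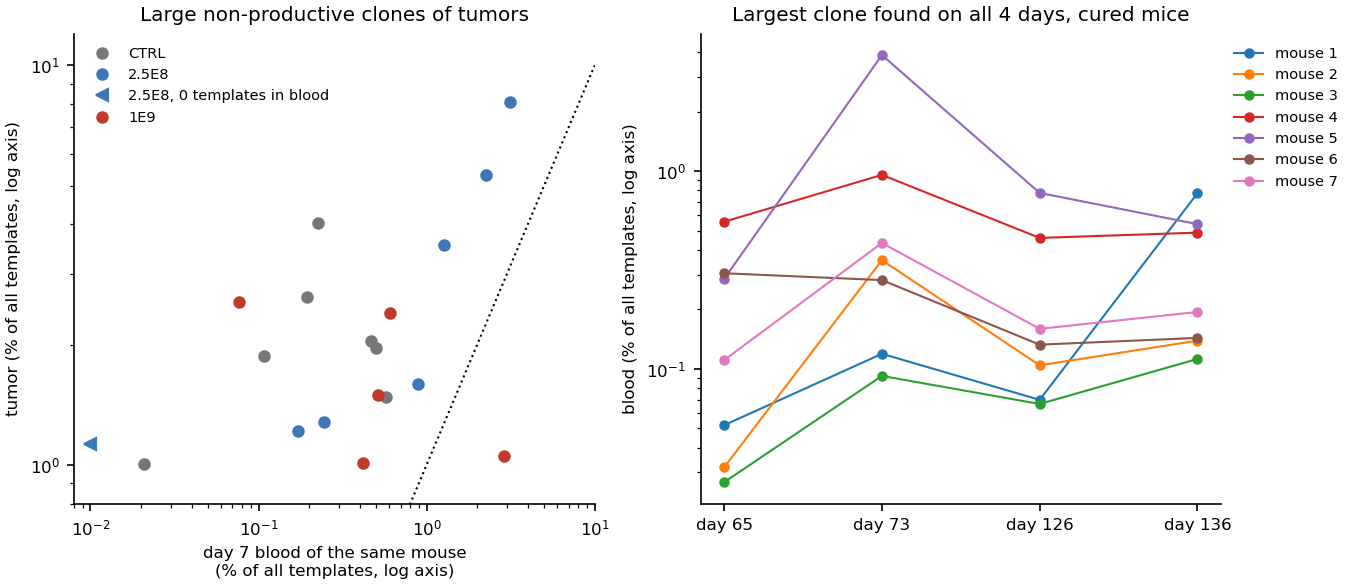
Left, share of all templates of the 19 large non-productive clones of tumors in the tumor (y) and in day 7 blood of the same mouse (x), both percent on log axes, with the dotted line marking equal shares and the triangle a clone with 0 blood templates. 18 of the 19 lie above the line, which their choice by tumor share favours. Right, share in blood (percent, log axis) on each of the 4 days of the largest non-productive clone found on all of them in each of the 7 cured mice, with the peak of 3.86% in mouse 5 on day 73.

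A candidate for the other TCRβ allele of the tumor line would be a non-productive rearrangement found in every tumor in proportion to the tumor-line rearrangement. Sequences within 2 edits (base changes, insertions or deletions) of the main OT-1 or tumor-line rearrangement are called near copies. The non-productive rearrangements found in at least 10 of 15 tumors numbered 16, of which 12 were near copies of OT-1 and 3 near copies of the tumor line. The last used the same segments as OT-1 (TCRBV12-01 and TCRBJ02-07) and had a CDR3 of 34 bases, 2 edits from that of OT-1, with at most 2 templates in a tumor. Near copies were rare beside their sources: 787 templates in 75 libraries beside 215000 of the main OT-1 rearrangement, and 192 templates, all in tumors, beside 247536 of the tumor line. The Out copy of OT-1 printed above had 33 templates in the 15 tumors and was found in 54 blood libraries, which made it the non-productive rearrangement found in the most libraries (69). The Out copy of the tumor line had 38 templates, in the 15 tumors and in 0 blood libraries. The part of sequencing or amplification error in these copies was not tested.

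Beyond near copies, all 8 non-productive rearrangements found in 5 or more tumors had CDR3s within 3 edits of OT-1 or of the tumor line. Outside that distance, the most widely found (TCRBV20-01, TCRBJ02-07, Out) was in 4 of 15 tumors with 1 template in each. The tumor-line rearrangement itself had between 93 and 61067 templates in a tumor. The largest non-productive clone of a tumor, other than near copies, stood at 0.637 to 385 per 100 tumor-line templates, but it was a different rearrangement in each tumor, so these values do not bear on a shared allele. No V-to-J rearrangement with status Out or Stop was found in all tumors at a level near that of the tumor line, and an allele that is not rearranged, or is joined only from D to J, would not be seen here, since the files held 0 such rows.

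Productive rearrangements within 1.5-fold of a large non-productive clone in each library of its mouse where that clone had at least 0.1%, and under 0.15% in the others, were listed as a description, chosen after values were seen. Of the 21 clones, 15 had none, 4 had 1 and 2 had more (clones 18 and 21, each over 0.1% in 1 library only). Clones 10 and 11 of CTRL mouse 3 had the same one (TCRBV04-01, TCRBJ01-04). It had 54 templates in day 7 blood and 1191 in the tumor. A T cell has 2 copies of the TCRβ gene, so no single cell could hold clones 10 and 11 and this productive rearrangement together. The rule can thus match rearrangements of different cells. Whether matched rearrangements lie in the same cells was otherwise not tested. Clone 4 (TCRBV13-03, TCRBJ02-07, Out) of cured mouse 5 had 36, 358, 144 and 182 templates on the 4 days. One productive rearrangement (TCRBV13-02, TCRBJ02-07) had 27, 283, 105 and 174 in the same libraries, which is 0.214%, 3.05%, 0.566% and 0.516% beside 0.286%, 3.86%, 0.776% and 0.54% for clone 4.
Productive rearrangement beside clone 4: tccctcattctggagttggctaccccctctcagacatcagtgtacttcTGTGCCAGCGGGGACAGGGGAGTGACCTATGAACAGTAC

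Changes of single clones between blood libraries of a mouse were tested with Fisher's exact tests over rearrangements of every status with at least 5 templates in both libraries together. A call compares those libraries and not the conditions. Between day 0 and day 7, 16 of 27 non-productive clones tested were called higher in CTRL mice (adjusted p under 0.05 within the mouse), where 46.6% of all non-productive and host productive clones tested were. In 2.5E8 mice 32 of 48 were called higher, with 65.2% over all clones tested, and in 1E9 mice 31 of 73, with 44.4%. Lower calls were 2, 0 and 1 (6.77%, 0.41% and 2.0% over all clones). Non-productive clones were thus called higher about as often as host productive clones in 2.5E8 (66.7% against 64.8%) and 1E9 mice (42.5% against 45.2%). In CTRL mice they were called higher more often (59.3% against 43.4%), a difference that was not tested. The largest called higher were clone 1 in 2.5E8 mouse 2 (adjusted p = 2.43e-161), clone 6 in 1E9 mouse 4 (adjusted p = 6.78e-86), and in CTRL mouse 3 a TCRBV04-01 Out rearrangement that went from 0 to 49 templates (0.508%, adjusted p = 4.8e-08, all Fisher's exact tests). The last is the Out read of TCRBV04-01 printed above. The largest called lower had 8 templates on day 0 in CTRL mouse 2 (a TCRBV04-01 Stop rearrangement) and 6 in 1E9 mouse 4 (TCRBV21-01, Out), and 0 on day 7.

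Among cured mice, 19 of 56 non-productive clones were called higher and 4 lower on day 73 against day 65 (23.3% and 4.02% over all clones tested), in 6 and 3 of 7 mice. The higher calls were 33.9% of non-productive and 20.2% of host productive clones, a difference that was not tested. Pre-EL4 blood against day 73 had more lower than higher calls, with 7 of 84 higher and 19 lower (8.18% and 17.9% over all clones tested). Post-EL4 against pre-EL4 blood gave 12 of 142 higher and 14 lower (8.38% and 12.4%). In Naive mice 4 clones could be tested and 0 were called by Fisher's exact test at the adjusted threshold, beside 14.5% higher and 20% lower over all 55 clones. Clone 4 was the largest in each of 3 of these calls, higher on day 73 (adjusted p = 5.74e-92), lower in pre-EL4 blood (adjusted p = 1.6e-67) and lower again in post-EL4 blood (adjusted p = 0.0158, Fisher's exact tests). The largest called lower on day 73 was a TCRBV23-01 Out rearrangement of mouse 6 (45 and 14 templates, adjusted p = 0.0117), and the largest called higher in pre-EL4 blood a TCRBV03-01 Out rearrangement of mouse 1 (0 and 44 templates, adjusted p = 6.99e-11, Fisher's exact tests). The largest called higher in post-EL4 blood was the TCRBV04-01 Stop rearrangement printed above, in cured mouse 1, which went from 9 to 113 templates (0.0697% to 0.773%, adjusted p = 4.46e-20, Fisher's exact test).

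The largest non-productive clone found on all 4 days was followed in each cured mouse. It was chosen by its templates over the 4 days together, which favours clones that were large on any of them, day 73 included. In 6 of the 7 mice its share was higher on day 73 than on day 65, the exception being mouse 6 (TCRBV04-01, TCRBJ01-02; 0.305% and 0.281%). Mouse 4 held a TCRBV13-01 clone at 0.555%, 0.958%, 0.46% and 0.489%, and mouse 7 a TCRBV05-01 clone at 0.111%, 0.433%, 0.159% and 0.194%. Mouse 2, with 0 OT-1 templates before EL4, held a TCRBV24-01 clone at 0.0318%, 0.355%, 0.104% and 0.139%. Mouse 3 held a TCRBV26-01 clone at 0.0267%, 0.0922%, 0.0665% and 0.112%, on 3 to 22 templates. Non-productive rearrangements found on all 4 days numbered 4 to 15 per mouse, of 12163 to 19600 found on any day (0.0305% to 0.0805%), against 0.0291% to 0.0802% of host productive rearrangements.

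Non-productive rearrangements were mostly private. Leaving out near copies, 98.9% of 197047 were found in 1 mouse and 0.138% in 3 or more, against 95.9% and 0.925% of 353592 host productive rearrangements. The host productive set was larger and had fewer rearrangements with 1 template (mean 70.6% against 79.6% over 81 libraries). The part of set size and sampling in this contrast was not tested. Sequences just past 2 edits from OT-1 were kept, among them a TCRBV12-01 and TCRBJ02-07 Out rearrangement found in 30 libraries. Their part in these values was not tested. Those in 3 or more mice had 2.67 inserted bases on average (N1 and N2, the untemplated bases on each side of D) against 4.31 for those in 1 mouse, and 40.4% against 5.87% had no inserted base.

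V segment use was compared with host productive rearrangements in the first blood library of each of 26 mice (day 0 or day 65), as a percent of rearrangements. Of 25 V segments with at least 100 rearrangements, 8 were over-represented (32.0%) and 11 under-represented (44.0%) among non-productive rearrangements (sign-flip permutation test, Benjamini-Hochberg over the 25, adjusted p under 0.05). TCRBV24-01 differed the most, at 5.38% ± 0.675 of non-productive and 1.21% ± 0.151 of productive rearrangements (SD, n = 26 mice, higher in 26 of 26, adjusted permutation p = 1.47e-05, the smallest these resamples can give after adjustment). TCRBV04-01 stood at 8.36% ± 0.584 and 4.43% ± 0.376, also higher in 26 of 26. TCRBV12-01 (by 1.47 points), TCRBV15-01 (1.05), TCRBV17-01 (0.84) and TCRBV21-01 (0.60) followed. TCRBV12-01 is the V segment of OT-1, and its difference was 1.24 points with near copies of any status left out.

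The largest deficits were of TCRBV03-01 (-2.28 points), TCRBV13-02 (-1.77), TCRBV31-01 (-1.54), TCRBV13-03 (-1.51) and TCRBV02-01 (-1.42), each lower in 26 of 26 mice, and of TCRBV01-01 (-1.01, lower in 24). Turned round, 33.7% of all rearrangements in these libraries were non-productive, but 73.2% ± 11.5 of those with TCRBV22-01, 69.4% ± 2.69 with TCRBV24-01, 69.0% ± 11.3 with TCRBV21-01, 62.9% ± 26.1 with TCRBV10-01 and 49.2% ± 2.44 with TCRBV04-01 (SD, n = 26). TCRBV10-01, the widest in spread, had 95 non-productive and 51 productive rearrangements in all. RefSeq (GRCm38.p6) lists Trbv22 and Trbv10 as V segment pseudogenes, and Trbv24, Trbv21 and Trbv4 as ordinary V segments. It also lists Trbv29 as a pseudogene, whose non-productive share here was 33.5% ± 4.34.

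**Figure D4:**
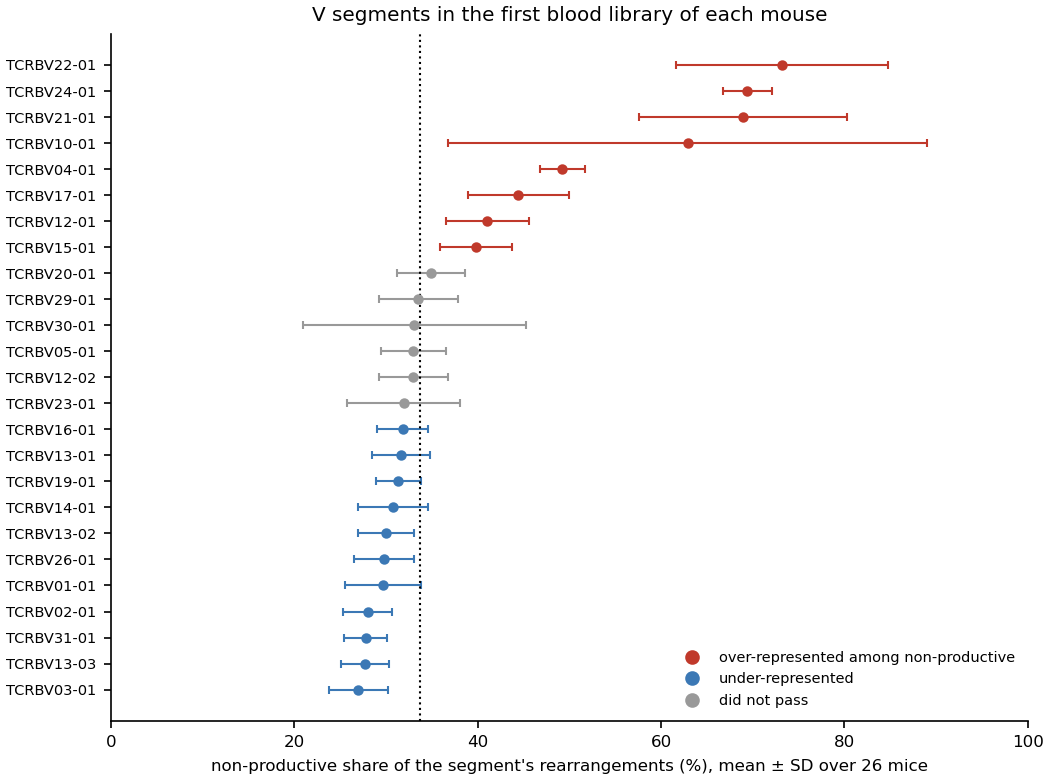
Non-productive share (percent, mean ± SD over 26 mice) of the rearrangements of each V segment in the first blood library, with the dotted line at 33.7%, the share over all segments. Red marks the 8 segments over-represented among non-productive rearrangements, with means from 39.8% to 73.2%, and blue the 11 under-represented.

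TCRBV24-01 reads held a stop codon ahead of the junction. In 14854 of 14878 of its rows (99.8%, all libraries and all statuses) the V part held an in-frame stop, nearly always the TAG that lies 2 codons before the CDR3. The status column does not count it, since 4568 of 4576 host productive TCRBV24-01 rows held it. Whether the TAG is in the germline segment of these mice or comes from how the assay fills in the V part of a read was not tested. The 4568 rows made up 89.0% of the 5130 in-frame rows with a stop in the V part (1.36% of host productive rows and 1.15% of their templates). Clone 3, the largest of the CTRL tumors, used this segment.

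TCRBV04-01 differed by how far its end was trimmed. In the first blood libraries, 97.1% of its 2700 rearrangements with 0 to 2 bases removed were non-productive (mouse mean 97.0% ± 2.78, SD, n = 26), with 1757 Out, 866 Stop and 77 in frame. With 3 or more removed it was 34.4% of 8784 (mouse mean 34.3% ± 2.77). The other V segments stood at 32.0% and 33.5% for the same classes. TCRBV04-01 supplied 998 of the 2027 Stop rearrangements (49.4% ± 7.49 per mouse, SD, n = 26). Of those 998, 868 had TAA at codon 5 of the CDR3, as in the Stop read printed above. Among the 1029 Stop rearrangements of other V segments, TGA was in 420, TAG in 322 and TAA in 287.

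**Figure D5:**
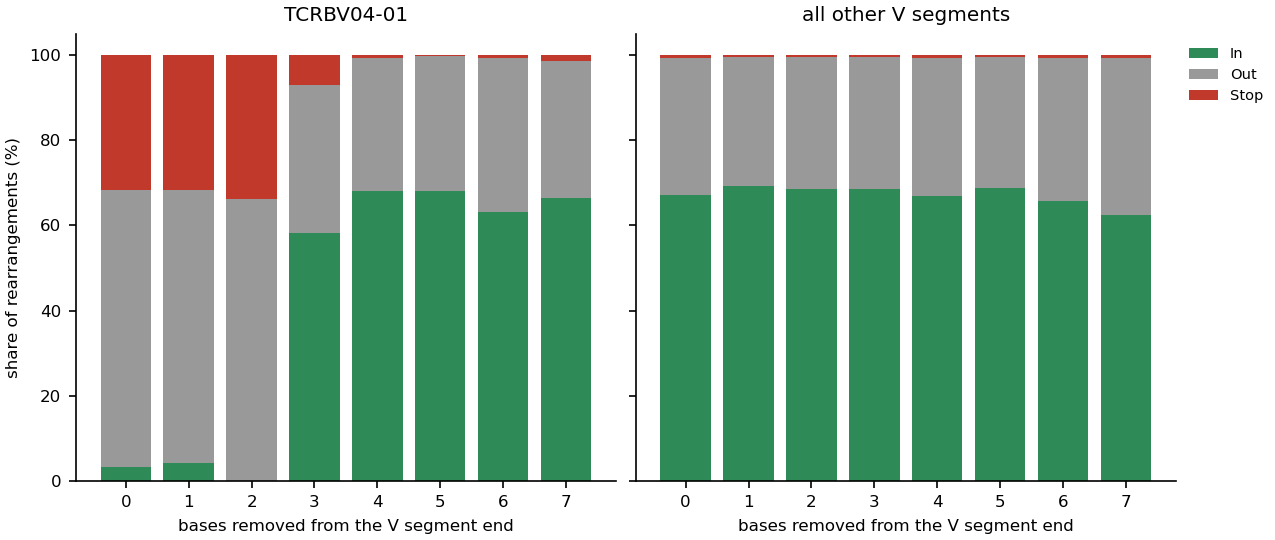
Share of rearrangements (percent, stacked bars) that were in frame (In), Out or Stop by the number of bases removed from the V end, for TCRBV04-01 (left) and all other V segments (right), in the first blood library of 26 mice. In-frame rearrangements of TCRBV04-01 numbered 38, 39 and 0 at 0, 1 and 2 bases removed, and 2008 at 4.

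Of 12 J segments, 4 were over-represented (33.3%) and 5 under-represented (41.7%) by the same test. TCRBJ02-07 stood at 23.9% ± 1.72 of non-productive against 18.8% ± 0.733 of productive rearrangements (SD, n = 26 mice, higher in 26 of 26, adjusted permutation p = 3e-05). Weighted by templates its difference was 0.54 points (adjusted permutation p = 0.0917), so its call rests on counting rearrangements. TCRBJ02-01 (0.86 points), TCRBJ01-05 (0.38) and TCRBJ01-06 (0.36) were also higher, though TCRBJ01-05 differed by -0.065 points in the second blood library of each mouse. TCRBJ01-01 was at 8.07% ± 0.822 against 11.1% ± 0.617 (lower in 25 of 26), followed by TCRBJ02-05 (-1.92 points), TCRBJ02-04 (-0.92), TCRBJ01-04 (-0.58) and TCRBJ01-03 (-0.45). The J segments TCRBJ01-07 and TCRBJ02-06 were below the minimum of 100 rearrangements and were not tested, and 104 of their 120 rearrangements were non-productive.

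The junctions themselves were longer. All 7 features differed (7 of 7, 100%) by the sign-flip test over 26 mice (adjusted permutation p from 1.17e-05 to 2e-05). The CDR3 had 42.7 ± 0.137 bases in non-productive and 41.7 ± 0.081 in host productive rearrangements (SD, n = 26), a difference of 0.99 in 26 of 26 mice. N1 insertions were 2.07 against 1.73 bases and N2 insertions 2.14 against 1.67. V ends had lost 2.88 against 2.62 bases, J ends 2.92 against 2.81 and the 5′ end of D 2.71 against 2.60, whereas the 3′ end of D had lost fewer, 2.92 against 3.33. Near copies of OT-1 stayed on the non-productive side. Among them was a rearrangement recorded with 36 bases removed from V, found in 49 blood libraries. The part of near copies in these differences was not tested. Of 64482 Out rearrangements in these libraries, 53.1% had a CDR3 length that leaves a remainder of 2 on division by 3 (51.4% to 55.4% per mouse), and among the 15360 with TCRBJ02-07 it was 56.98%.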

How the data were processed

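Blood and tumor DNA from 27 mice was analysed in 81 libraries. The authors amplified TCRβ rearrangements from genomic DNA with the immunoSEQ multiplex assay, and deposited for each 87-base rearrangement a count of templates, not normalized. The authors also deposited the fraction of all templates, which equalled count over sum in 81 of 81 libraries, and the other junction fields (CDR3 length, deletions and insertions) in bases. Aligner version and genome build are not given in the sources used here. No reads were processed here.

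Non-productive rows were those with status Out or Stop. Shares were compared between mice with 2-sided exact permutation tests and within mice with exact sign-flip tests. Segments and junction features were compared with sign-flip tests of 100000 resamples (seed 7) and Benjamini-Hochberg adjustment. Clones were compared with Fisher's exact tests at an adjusted p of 0.05. Python 3.11.15, pandas 2.3.3, numpy 2.4.6, scipy 1.17.1 and edlib 1.3.9.post1 were used, and the clone and segment tests were tested on simulated data. Intervals are 95% Wilson intervals and cover counting error only. Whether mice of a group shared a cage or batch is not given, so tests over mice weigh differences against the spread between these mice only. Fisher's exact tests compare template counts of libraries of a single mouse and hold no spread between mice.

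Blood of CTRL mouse 1 on day 7 and of 1E9 mouse 1 on day 0 was not analysed here. Members, lists and tests were chosen with earlier results of these data known. Rearrangements named are those with at least 1% of a library's templates (the largest 12), those in at least 10 of 15 tumors, the one in most libraries, the largest called in each clone comparison, and the largest found on all 4 days in each cured mouse. Up to 6 V and J segments are named in each direction. One day 73 title of the cured group gives mouse number 1 beside the code of animal 2, and its library was taken as animal 2. Alternatives tried were singletons left out, rearrangements in place of templates, Out only, a log ratio, large clones or near copies left out, subsampling, each mouse left out and pairing by mouse number. Later alternatives, chosen after the values were seen, counted in-frame rows with a stop in V as non-productive, or left out near copies of any status.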

Additional observations from a re-analysis of the deposited data

Results flagged for a closer look

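Changes of the non-productive share of templates differed between groups. The change from day 0 to day 7 was lower in 1E9 than in CTRL blood (difference -15.2 points, 4 against 4 mice, exact permutation p = 0.0286, the smallest these sizes allow) and lower than in 2.5E8 blood (difference -16.4 points, 4 against 5 mice, exact permutation p = 0.00794). The change from day 65 to day 73 was lower in cured than in Naive mice (difference -8.34 points, 7 against 5 mice, exact permutation p = 0.00253). Per 100 host productive templates the same 3 differences were 1.76, -1.51 and -1.25 (exact permutation p = 0.514, 0.619 and 0.598).

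Single libraries stood apart in 2 of 45 groups of values tested by gap over range, where chance gives about 1 in 20. The non-productive share of rearrangements was 36.3% in day 73 blood of cured mouse 7 (next highest 34.5%), the mouse with the highest OT-1 share that day, and 39.5% in day 7 blood of 2.5E8 mouse 4 (next highest 36.9%).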

How the results depend on the processing

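Of 566 values recomputed under other settings, 457 kept their direction and side of the threshold (or, for counts, stayed within 1.5 times), 25 lost and 9 gained the threshold, 17 counts moved further and 58 changed sign. Counting rearrangements in place of templates changed the most, and the cause was not tested. The non-productive share then differed in tumors by 5.75 points (1E9 minus CTRL), 3.33 (2.5E8 minus CTRL) and 2.42 (1E9 minus 2.5E8), and in day 7 blood by 0.517, 1.61 and -1.1 in the same order. It changed by 3.15 in 1E9 blood from day 0 to day 7 and by -0.365 in cured mice from day 65 to day 73, and cured minus Naive was 0.222 on day 65 and -1.39 on day 73. Per 100 host productive rearrangements the tumor differences were 16.9, 9.21 and 7.71, the day 7 blood differences 2.55, 4.04 and -1.5, and the changes in cured mice -0.701 (day 73 minus day 65) and 3.15 (pre-EL4 minus day 73). With near copies of any status also left out, an alternative added after the values were seen, the shares gave 5.42, 3.31 and 2.12 in tumors, 0.211, 1.62 and -1.41 in day 7 blood, 2.84, -0.421, 0.242 and -1.44. The ratios gave 14.8, 8.6 and 6.2 in tumors, 1.16, 4.0 and -2.84 in day 7 blood, and -0.88 and 3.29 in cured mice.

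Without rearrangements of 1 template, the ratio to 100 host productive templates differed by 11.7 between 1E9 and 2.5E8 tumors and 2.06 between 1E9 and CTRL day 7 blood. It changed by -1.12 (CTRL) and -2.86 (2.5E8) from day 0 to day 7, by -4.56 in cured mice from day 73 to pre-EL4 and by -0.179 in Naive mice, cured minus Naive was 3.4 on day 73, and the share in post-EL4 minus pre-EL4 blood was 0.70003. Without large clones, the tumor share differed by 0.748 (1E9 minus CTRL), the tumor ratio by 14.3 (1E9 minus CTRL) and 16.4 (1E9 minus 2.5E8), and the cured ratio by -0.312 (day 73 minus day 65). With in-frame rows that carry a stop in V counted as non-productive, also added later, the post-EL4 minus pre-EL4 share was 0.0254 and cured minus Naive by ratio -0.381 on day 65. Subsampled to the smallest library, cured minus Naive was 1.43 on day 65. The relation to OT-1 share by ratio was 0.232, 0.104, 0.636, 0.202 and -0.246 (day 0, day 65, day 73, pre-EL4, post-EL4).

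Leaving out each mouse in turn, sign or side changed for the ratio of cured minus Naive on day 65 (-0.61 to 0.802), post-EL4 minus pre-EL4 (-1.52 to -0.791) and day 73 minus day 65 in cured mice (-0.397 to 1.44). It also changed for the day 7 blood ratios of 1E9 minus 2.5E8 (-1.09 to 1.82), 1E9 minus CTRL (-1.7 to 1.21) and 2.5E8 minus CTRL (-1.74 to 0.353), and for the tumor ratios of 1E9 minus 2.5E8 (11.2 to 18.2) and 1E9 minus CTRL (5.44 to 14.1). Of the shares it changed for post-EL4 minus pre-EL4 (-0.137 to 0.086) and tumor 1E9 minus CTRL (-1.43 to 0.566).

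Large clones numbered 36 in tumors and 18 in blood at 0.5% and 8 and 4 at 2%. Outside 3 CDR3 edits, the most tumors holding 1 non-productive rearrangement fell from 13 to 4. Calls of single clones at an adjusted p under 0.01 were 10 higher and 0 lower in CTRL mice. In cured mice they were 1 lower (day 73), 4 higher (pre-EL4), and 5 higher and 0 lower (post-EL4). With at least 10 templates they were 0 lower in CTRL, 17 higher in 2.5E8, 0 lower in 1E9 mice and 3 lower in post-EL4 blood. Tested among non-productive templates alone they were 4 lower in CTRL mice and 4 higher in pre-EL4 blood. Of the J segments named, TCRBJ02-07 lost its call by templates (adjusted permutation p = 0.0917). The call was lost for TCRBJ01-04 by templates and in the treatment experiment alone (adjusted permutation p = 0.257 and 0.194). It was also lost for TCRBJ01-06 in the treatment experiment alone (adjusted permutation p = 0.198). In the rechallenge experiment alone TCRBJ01-05 and TCRBJ01-03 lost it (adjusted permutation p = 0.108 and 0.0536). TCRBJ01-05 lost it in the second blood library too (adjusted permutation p = 0.643).

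Mouse numbers do not pair mice of different arms: the deviations of same-numbered mice correlated at -0.152 (41 pairs, treatment) and -0.481 (10 pairs, rechallenge). With the replicate number as a block, values were 14.7 (tumor ratio, 1E9 minus 2.5E8), -16.998 (day 7 share, 1E9 minus CTRL), -16.7 (1E9 minus 2.5E8), 0.616 (day 7 ratio, 1E9 minus CTRL), and 2.35 and -6.25 (cured minus Naive share, days 65 and 73), none past the threshold, which 4 or 5 pairs cannot reach.

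Depth limits rare clones: the smallest library held 2623 templates, and a clone at 0 there is bounded only by 3 templates.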
